A study of Rattus norvegicus with 15 samples.

Results

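Cartilage of early-stage elderly rats (T3, 3 arrays) was set against cartilage of youth (T1, 3 arrays), 6 of the 15 arrays of the series, which were chosen by the stage label alone. Both groups were Sprague-Dawley rats, and every array held total RNA of articular cartilage from the right knee, taken from each animal separately. The series also holds newborn (T0), adult (T2) and latter-stage elderly (T4) cartilage, with 3 arrays a stage. The sources used here give neither the ages nor the sexes of the rats, and no array batch. The labels call the arrays of a stage biological replicates. The source name of T1 replicate 3 says adult, whereas its other labels say youth, and it stayed in T1. The array carried 36685 probe sets, of which 18511 had a single gene symbol and named 18166 genes. Values are log2 signals, so a difference of 1 is a 2-fold change.

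Articular cartilage covers the ends of bones in a joint. Its only resident cells, the chondrocytes, make a matrix in which a network of type II collagen holds aggrecan, a proteoglycan whose sulfated sugar chains bind water. In the young, the deeper cartilage still grows and turns into bone: its chondrocytes enlarge, make type X collagen and mineralize their matrix, while the superficial cells make lubricin. Procollagen has to be hydroxylated, folded and exported before it is cut and crosslinked outside the cell, so a matrix-making cell runs a large secretory pathway.

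The T3 arrays differed from the T1 arrays in their overall signal as well. The standard deviation over probe sets was 1.83 to 1.97 on the T3 arrays and 2.00 to 2.02 on the T1 arrays. Olfactory receptor genes, which serve outside cartilage, had a median signal over 1185 genes of 3.23, 3.41 and 3.00 on T3 replicates 1, 2 and 3, against 2.95, 2.89 and 2.87 at T1. Of the T3 arrays, replicate 3 was thus the closest to youth, and its mean correlation with the T1 arrays was 0.957, against 0.920 for replicate 1 and 0.893 for replicate 2. Same-stage correlations averaged 0.930 at T3 and 0.975 at T1. The median difference between T3 and T1 was 0.26 in the dimmest and -0.32 in the brightest of 4 equal groups of genes, split by mean signal. Over all genes it was 0.02, and over all probe sets it was 0.13, or -0.05 once each array was centred on its median. The part of these array properties in the differences below was not tested.

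With limma, fitted on all 15 arrays with Benjamini-Hochberg adjustment over all probe sets, 1562 probe sets (4.26%) passed an adjusted p of 0.05 between T3 and T1. Of these, 561 (1.53%) were higher and 1001 (2.73%) lower at T3. Among the 18166 genes the balance was more one-sided, with 133 higher (0.732%) and 788 lower (4.34%). Falls were also larger: 91 genes fell by more than 2 on the log2 scale, whereas 4 rose by more than 2. The called genes had a median change of -1.31 where they fell and 1.00 where they rose. Called or not, 19.5% of all genes had every T3 array below every T1 array, and 14.6% had every T3 array above. Falls gathered in bright genes, with 9.58% of the brightest of these 4 groups called lower and 0.176% of the dimmest. The 18174 probe sets without a single symbol went the other way, with 2.34% called higher and 1.12% lower. Centring each array on its median moved the balance to 328 higher and 1698 lower probe sets, whereas the fit without the T4 arrays gave 2095 higher and 2108 lower. Each single array carried weight. The count was 246 without T3 replicate 1, 273 without T3 replicate 2 and 4947 without T3 replicate 3. It was 396, 183 and 353 without T1 replicates 1, 2 and 3, and 65 with T1 replicate 3 counted as adult. None of the 1562 probe sets took the opposite sign in any of the 17 alternatives that fitted it. Several of these, such as the fit without the T4 arrays, kept the same T3 and T1 means, so there the sign could not change.

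**Figure D1:**
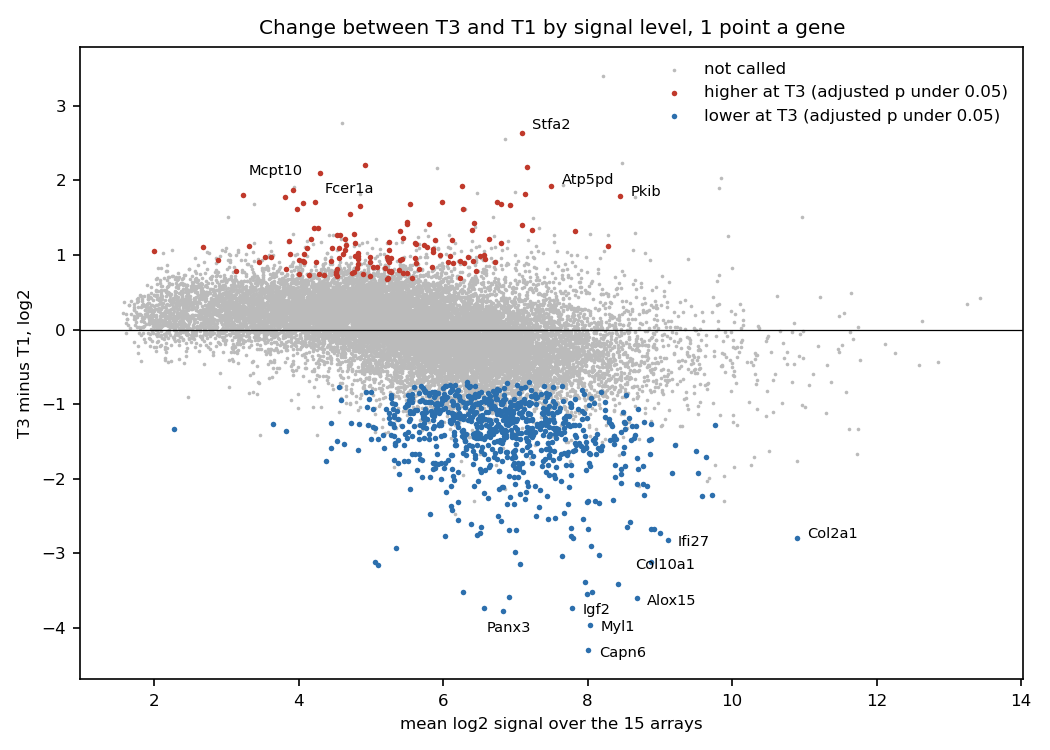
Each point is a gene, placed by its mean log2 signal over the 15 arrays (horizontal axis) and its T3 minus T1 difference in log2 (vertical axis); the 788 genes called lower are blue, the 133 called higher are red and the rest grey. The blue points extend to -4.30 at Capn6 and lie mostly among bright genes, while few red points pass 2.

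Of 146 called genes selected by rule, 14 stayed called under all 17 alternatives, and all 14 were lower at T3. Capn6, which encodes a calpain family protein, fell furthest. It gave 5.57, 5.47 and 5.82 at T3, against 9.86, 10.27 and 9.63 at T1, a change of -4.30 (SE 0.38, limma adjusted p = 0.000144) or 19.7-fold. Every T3 array lay far below every T1 array. Itm2a, an integral membrane protein gene, gave 5.99, 5.67 and 5.78 at T3, against 9.44, 9.58 and 9.06 at T1 (change -3.54, SE 0.46, limma adjusted p = 0.00180). Its groups were as cleanly apart, with little spread inside either. The other 12 were the cartilage matrix genes Matn3, Hapln1 and Cnmd, the hypertrophy and mineralization genes Panx3, Col10a1 and Smpd3, the collagen crosslinking enzyme gene Loxl4, the secretory gene Kdelr3, the imprinted gene Plagl1, the tendon gene Tnmd, the muscle gene Actn2 and the interferon-induced gene Ifi27. Over the alternatives, the number of members called lower ran from 3 to 15 in the cartilage matrix list, from 3 to 14 in the hypertrophy list, from 4 to 21 among skeletal muscle markers and from 1 to 14 among interferon-stimulated genes. The lowest number in each list came with T1 replicate 3 counted as adult, and for the hypertrophy and interferon lists also with some single arrays left out. This array, whose source name says adult, was the lowest of the T1 arrays in 365 of the 788 genes called lower (46.3%) and in 34.96% of all genes. It was also the lowest in 11 of the 14 genes. These had to stay called with it counted as adult, a filter that favours genes in which it is low. The part of this array in the falls was not tested beyond the alternatives without it.

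**Figure D2:**
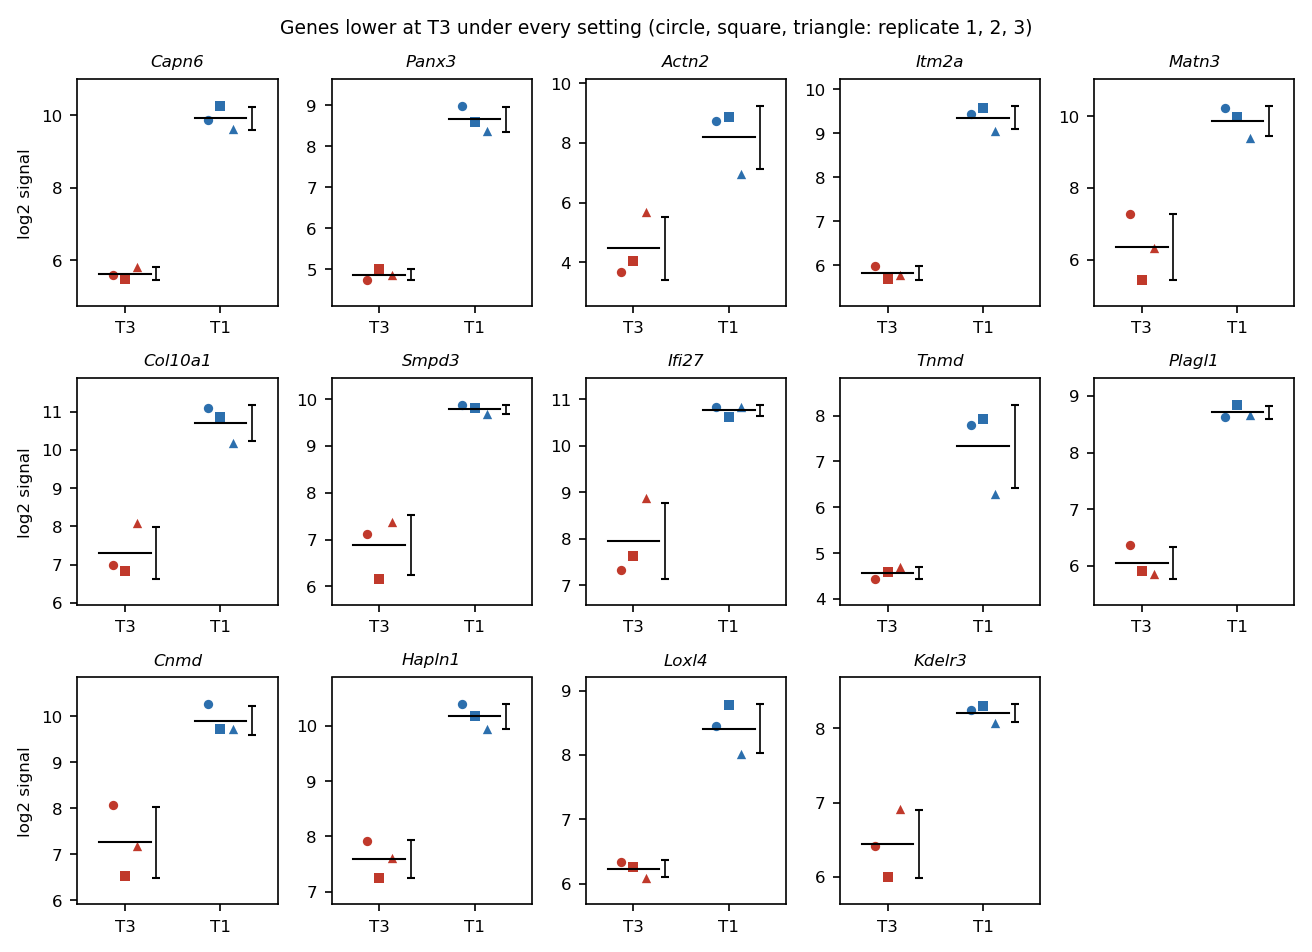
Log2 signal of the 14 genes that stayed called in all 17 alternatives, with 3 T3 arrays (red, left) and 3 T1 arrays (blue, right) a panel; horizontal lines are means and side bars are SD (n = 3). All T3 points lie below all T1 points in each panel, and T1 replicate 3 is the lowest T1 array in 11 of the 14, the exceptions being Cnmd, Ifi27 and Plagl1. The choice of the 14 favours genes in which this array is low, since they stayed called with it counted as adult.

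Among 18 measured genes of the cartilage matrix, 12 fell between T1 and T3 and the other 6 were not called, against 4.34% of all genes called lower. The list median was -2.07, against 0.02 over all genes. Col2a1, the type II collagen gene, gave 10.35, 8.80 and 9.96 at T3, against 12.47, 12.55 and 12.48 at T1 (change -2.79, SE 0.56, limma adjusted p = 0.0170). The T1 arrays agreed closely, and the T3 arrays were lower and more spread. Acan, the aggrecan gene, gave 8.96, 8.0 and 9.88 at T3, against 11.14, 11.33 and 11.04 at T1 (change -2.22, SE 0.47, limma adjusted p = 0.0215). Again T3 replicate 2 was the lowest. Both calls were open to the choice of arrays and settings, since Col2a1 stayed called in 12 of 17 alternatives and Acan in 9.

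Proteins that tie the matrix together went the same way. Hapln1, the link protein that fixes aggrecan to hyaluronan, gave 7.92, 7.24 and 7.62 at T3, against 10.40, 10.17 and 9.95 at T1 (change -2.58, SE 0.25, limma adjusted p = 0.000257). Matn3, a matrilin that bridges collagen and proteoglycan, gave 7.29, 5.44 and 6.33 at T3, against 10.23, 9.96 and 9.40 at T1 (change -3.51, SE 0.37, limma adjusted p = 0.000497). Cnmd, chondromodulin, which keeps vessels out of cartilage, gave 8.07, 6.52 and 7.18 at T3, against 10.27, 9.71 and 9.72 at T1 (change -2.65, SE 0.34). No T3 array of these 3 genes reached a T1 array, which held for 14 of the 18 cartilage matrix genes and for 19.5% of all genes. Matn1 gave 5.94, 5.54 and 5.58 at T3, against 7.31, 7.86 and 8.11 at T1 (change -2.07, SE 0.23, limma adjusted p = 0.000698). In bulk tissue, fewer cells of a type and less RNA per cell cannot be told apart.

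The deposited values carry no detection call, so the defining genes of cartilage are given by their signals alone. Sox9, the master regulator of chondrocytes, gave 4.93, 5.22 and 5.21 at T3, against 5.31, 5.68 and 5.34 at T1, and was not called (change -0.32, SE 0.18, limma adjusted p = 0.303). The groups did not overlap, but the gap between them was small. Of 11 measured chondrocyte transcription factors, 4 fell, against 4.34% of all genes called lower. They were Mef2c (-2.10), which drives hypertrophy, Runx2 (-1.24), Trps1 (-1.22) and Zbtb20 (-1.20). Mef2c gave 7.43, 7.99 and 8.41 at T3, against 9.81, 10.32 and 9.99 at T1 (SE 0.35, limma adjusted p = 0.00890), and it stayed called in 15 of 17 alternatives, against 6 or 7 for the other 3.

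Small leucine-rich proteoglycans coat collagen fibrils and set their width. The list held 11 measured genes, 4 of which fell, against 4.34% of all genes called lower. The median was -2.09, with a negative difference in every member. Omd, osteomodulin, gave 7.26, 6.90 and 7.47 at T3, against 9.29, 9.92 and 9.98 at T1 (change -2.52, SE 0.44, limma adjusted p = 0.0107). Aspn, Kera and Ogn changed by -2.99, -2.93 and -2.23. The T3 and T1 arrays of these 4 genes did not overlap, although for Kera T3 replicate 3 (4.54) came close to the lowest T1 array (5.38). Every T3 array lay below every T1 array in 8 of the 11, against 19.5% of all genes.

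Collagens outside the cartilage-specific set were lower as well. Of 17 measured fibrillar, basement membrane and type VI collagen genes, 7 fell, against 4.34% of all genes called lower. The list median was -1.28. Col12a1, which coats fibrils in tendon and perichondrium, gave 7.96, 6.76 and 8.84 at T3, against 10.92, 10.47 and 10.20 at T1 (change -2.68, SE 0.52, limma adjusted p = 0.0155). Col5a2 (-1.50), Col5a1 (-1.28) and Col4a1 (-1.22) also fell, the type V genes encoding chains that start fibrils and Col4a1 a basement membrane chain.

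The machinery that folds, exports and crosslinks collagen was lower too. All 26 measured folding and crosslinking genes had negative differences, and 12 of them fell, against 4.34% of all genes called lower. The list median was -1.31. Of the 26, 23 lay in the brightest of the 4 groups of genes by signal. In that group 9.58% were called lower and the median difference was -0.32. Serpinh1, the collagen chaperone HSP47, gave 8.35, 7.60 and 8.74 at T3, against 10.35, 10.05 and 10.07 at T1 (change -1.93, SE 0.29, limma adjusted p = 0.00483). Crtap, a part of the prolyl 3-hydroxylation complex, changed by -1.94, and Fkbp10, a prolyl isomerase of procollagen, by -2.05. Loxl4, a lysyl oxidase family gene, gave 6.34, 6.27 and 6.08 at T3, against 8.44, 8.78 and 8.01 at T1 (change -2.18, SE 0.28, limma adjusted p = 0.00180). Its T3 arrays were tight and lay below all T1 arrays.

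In the wider secretory pathway, 8 of 29 measured genes fell, against 4.34% of all genes called lower, and the median was -0.59. Of the 29, 27 lay in the brightest of the 4 groups of genes by signal. In that group 9.58% were called lower and the median difference was -0.32. The list median became 0.05 when the olfactory receptor median entered the model as a covariate. Sec24d (-1.82) and Sec23a (-1.33) encode coat proteins of the vesicles that carry procollagen out of the endoplasmic reticulum. Kdelr3 (-1.76) and Kdelr2 (-1.41) encode receptors that return chaperones to it. Kdelr3 gave 6.41, 6.00 and 6.91 at T3, against 8.25, 8.30 and 8.06 at T1 (SE 0.24, limma adjusted p = 0.00259). T3 replicate 3 was the highest of its group and still below youth.

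Aggrecan's sugar chains are built by a separate set of enzymes, and 3 of its 21 measured genes fell, against 4.34% of all genes. Papss2, which makes the sulfate donor, gave 6.03, 5.42 and 6.74 at T3, against 8.29, 8.78 and 8.25 at T1 (change -2.38, SE 0.45, limma adjusted p = 0.0144). Chst11, the chondroitin 4-O-sulfotransferase, changed by -2.04 and the chain polymerase gene Chsy1 by -1.06. The T3 and T1 arrays of these 3 genes did not overlap. Every T3 array lay below every T1 array in 10 of the 21, against 19.5% of all genes. The other 18 genes were not called, and the list median was -0.45.

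Hypertrophy and mineralization genes were among the largest falls. Of 15 measured genes, 8 fell, against 4.34% of all genes called lower. The other 7 had negative differences too, and the median was -1.44. Col10a1, the collagen of hypertrophic chondrocytes, gave 6.99, 6.83 and 8.09 at T3, against 11.09, 10.86 and 10.18 at T1 (change -3.41, SE 0.38, limma adjusted p = 0.000673). Panx3, a membrane channel of prehypertrophic and bone-forming cells, gave 4.74, 5.02 and 4.86 at T3, against 8.98, 8.59 and 8.37 at T1 (change -3.77, SE 0.44, limma adjusted p = 0.000854). The T3 values of Panx3 lay close together and far below youth.

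Smpd3, a sphingomyelinase needed for skeletal mineralization, gave 7.12, 6.15 and 7.38 at T3, against 9.87, 9.80 and 9.68 at T1 (change -2.90, SE 0.34, limma adjusted p = 0.000962). Ihh, the signal from prehypertrophic cells, gave 4.62, 5.63 and 4.92 at T3, against 6.82, 6.30 and 6.27 at T1 (change -1.40, SE 0.27, limma adjusted p = 0.0160). Mmp13, the collagenase of hypertrophic cartilage, gave 9.70, 9.55 and 9.23 at T3, against 11.49, 11.46 and 11.63 at T1. Its arrays did not overlap, yet it was not called (change -2.03, SE 0.67, limma adjusted p = 0.0968), in a fit that shares its estimate of spread over the 5 stages.

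Bone cell markers overlapped with that list and moved beside it. Of 17 measured osteoblast and osteocyte markers, 8 fell, against 4.34% of all genes called lower. Among them were Phex (-2.33), Pdpn (-1.91) and Ifitm5 (-1.37). The mean signal of the list was 7.07 to 7.30 on the T3 arrays and 8.18 to 8.49 on the T1 arrays. The defining marker Bglap was at -0.16 and was not called. Fgf23, a phosphate-regulating hormone of osteocytes, named here after its value was seen, was the exception: it gave 5.26, 5.69 and 4.61 at T3, against 3.77, 4.29 and 4.47 at T1 (change 1.01, SE 0.26, limma adjusted p = 0.0460). Of 10 osteoclast markers, 1 fell (Tnfrsf11a, the receptor for RANKL, -0.88), a single call beside the 4.34% of all genes called lower. The median over that list was -0.76. The part of bone cells in the hypertrophy result was not tested.

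Of 10 measured genes of the superficial zone and joint lining, 2 fell, against 4.34% of all genes called lower. All 10 had negative differences and the median was -0.80. Of the 10, 7 lay in the brightest of the 4 groups of genes by signal, where 9.58% were called lower. The falls were both adhesion or matrix genes: Abi3bp (-2.07) and Vit, vitrin (-1.90). Vit gave 6.16, 5.78 and 6.18 at T3, against 7.81, 8.08 and 7.92 at T1 (SE 0.33, limma adjusted p = 0.0109). Prg4, which encodes lubricin, gave 9.16, 9.28 and 11.01 at T3, against 10.81, 10.96 and 10.59 at T1. T3 replicate 3 lay above all T1 arrays and the other T3 arrays below them, so the groups overlapped and Prg4 was not called (change -0.97, SE 0.51, limma adjusted p = 0.282).

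Among matrix proteases and their inhibitors, 7 of 32 measured genes fell, against 4.34% of all genes called lower, and the median was -0.78. Mmp14, the membrane-bound collagenase, gave 6.94, 6.89 and 7.43 at T3, against 9.55, 9.30 and 9.28 at T1 (change -2.29, SE 0.30, limma adjusted p = 0.00196). Timp1, a secreted inhibitor of such enzymes, gave 6.90, 6.83 and 8.33 at T3, against 9.61, 9.65 and 9.71 at T1 (change -2.30, SE 0.42, limma adjusted p = 0.0128). An enzyme and an inhibitor were thus lower by about the same amount. The aggrecanase genes Adamts4 and Adamts5 had differences of 0.02 and -0.41, and neither was called.

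Growth genes of juvenile and fetal life included the smallest adjusted p among the named genes. Igf2, an imprinted growth factor, gave 5.49, 5.56 and 5.12 at T3, against 8.80, 9.46 and 9.11 at T1 (change -3.73, SE 0.26, limma adjusted p = 1.85e-05), a 13.3-fold fall. It was already at 5.67, 5.13 and 5.70 in adults. Plagl1, an imprinted zinc finger gene, gave 6.37, 5.91 and 5.86 at T3, against 8.62, 8.85 and 8.67 at T1 (change -2.66, SE 0.26, limma adjusted p = 0.000257). Zim1 (-2.03) and Grb10 (-1.99), both imprinted in mouse, fell too. In all, 6 of 19 measured genes fell and 1 rose, against 4.34% of all genes called lower and 0.732% called higher. The riser was Mycn, named after its value was seen, with 6.44, 6.76 and 5.82 at T3, against 4.89, 5.53 and 5.0 at T1 (change 1.20, SE 0.24, limma adjusted p = 0.0178).

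The IGF1 axis carries growth hormone signals to cartilage. Of its 17 measured genes, 5 fell, against 4.34% of all genes called lower, and the median was -0.87. Ghr, the growth hormone receptor, gave 5.65, 4.82 and 5.50 at T3, against 7.19, 7.66 and 7.41 at T1 (change -2.10, SE 0.35, limma adjusted p = 0.00888). Igf1 gave 6.91, 7.29 and 7.94 at T3, against 8.82, 8.81 and 8.69 at T1 (change -1.39, SE 0.27, limma adjusted p = 0.0156). The binding protein gene Igfbp6 and the clearance receptor gene Igf2r changed by -1.64 and -1.58. Ligand, receptors and a binding protein were thus among the falls, with no overlap between the T3 and T1 arrays in these 4 genes. In the whole list, 11 of 17 genes had every T3 array below every T1 array, against 19.5% of all genes. The other 12 genes of the list were not called, and 3 of the 17 had positive differences.

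Signalling lists had 13.6% to 20.6% of their genes called lower, against 4.34% of all genes, with mildly lower medians. In TGF-beta and BMP signalling, 7 of 38 genes fell (median -0.44), among them the ligand genes Tgfb3 (-1.71) and Bmp4 (-1.55), the receptor gene Acvr1 (-1.17) and the secreted Fstl1 (-1.10). In Wnt signalling, 7 of 34 fell (median -0.58), including the ligand-enhancing Rspo3 (-1.94), the secreted antagonist Sfrp5 (-1.76) and the transcription factor genes Tcf7l2 (-1.16) and Lef1 (-0.93). Nkd1, an intracellular Wnt inhibitor named after its value was seen, rose by 0.69. Agonists and antagonists were both among the falls. In the Hedgehog, PTHrP and FGF list, Ihh, the natriuretic peptide receptor gene Npr2 (-1.44) and Gli3 (-1.21) fell, 3 of 22.

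Genes by which chondrocytes sense load and matrix were lower as a group of values. All 17 measured mechanosensing and CCN genes had negative differences, and 10 of them fell, against 4.34% of all genes called lower. The median was -0.99. Trpv4, a calcium channel opened by osmotic and mechanical stress, gave 5.35, 5.65 and 5.79 at T3, against 6.95, 6.64 and 6.68 at T1 (change -1.16, SE 0.23, limma adjusted p = 0.0167). Ccn4, a matricellular protein gene, changed by -1.75, the collagen-binding integrin gene Itga11 by -1.51 and the collagen receptor gene Ddr2 by -1.49. With T1 replicate 3 counted as adult, none of the 17 was called.

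Transcripts of tissues around the joint surface changed along with those of cartilage. Of 31 measured skeletal muscle markers, 19 fell, against 4.34% of all genes called lower, and the median was -2.15. Acta1, skeletal actin, gave 5.62, 6.29 and 6.48 at T3, against 9.40, 9.90 and 9.24 at T1 (change -3.38, SE 0.31, limma adjusted p = 0.000180). Neb, nebulin, gave 4.47, 4.89 and 5.95 at T3, against 8.78, 9.29 and 7.98 at T1 (change -3.58, SE 0.39). The mean signal of the list was 5.29, 5.44 and 5.71 on T3 replicates 1, 2 and 3, against 7.53, 7.80 and 6.77 on T1 replicates 1, 2 and 3. T1 replicate 3 was the lowest youth array and T3 replicate 3 the highest elderly one.

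Markers of tendon, ligament and synovial fibroblasts followed, with 8 of 18 called lower, against 4.34% of all genes, and a median of -1.63. Tnmd, tenomodulin, gave 4.43, 4.59 and 4.69 at T3, against 7.79, 7.91 and 6.29 at T1 (change -2.76, SE 0.38, limma adjusted p = 0.00255). Adipocyte markers had 7 of 19 called lower and a median of -0.79. Lpl, lipoprotein lipase, gave 5.91, 5.77 and 5.56 at T3, against 8.04, 8.19 and 7.77 at T1 (change -2.25, SE 0.25, limma adjusted p = 0.000673), and the adipokine gene Adipoq changed by -1.76. Smooth muscle and pericyte markers had 6 of 15 called lower and endothelial markers 4 of 17, led by Des (-2.15), which skeletal muscle also makes, and by Cdh5 (-1.84), the endothelial cadherin gene. The part of these tissues in the differences of matrix and growth genes was not tested.

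**Figure D3:**
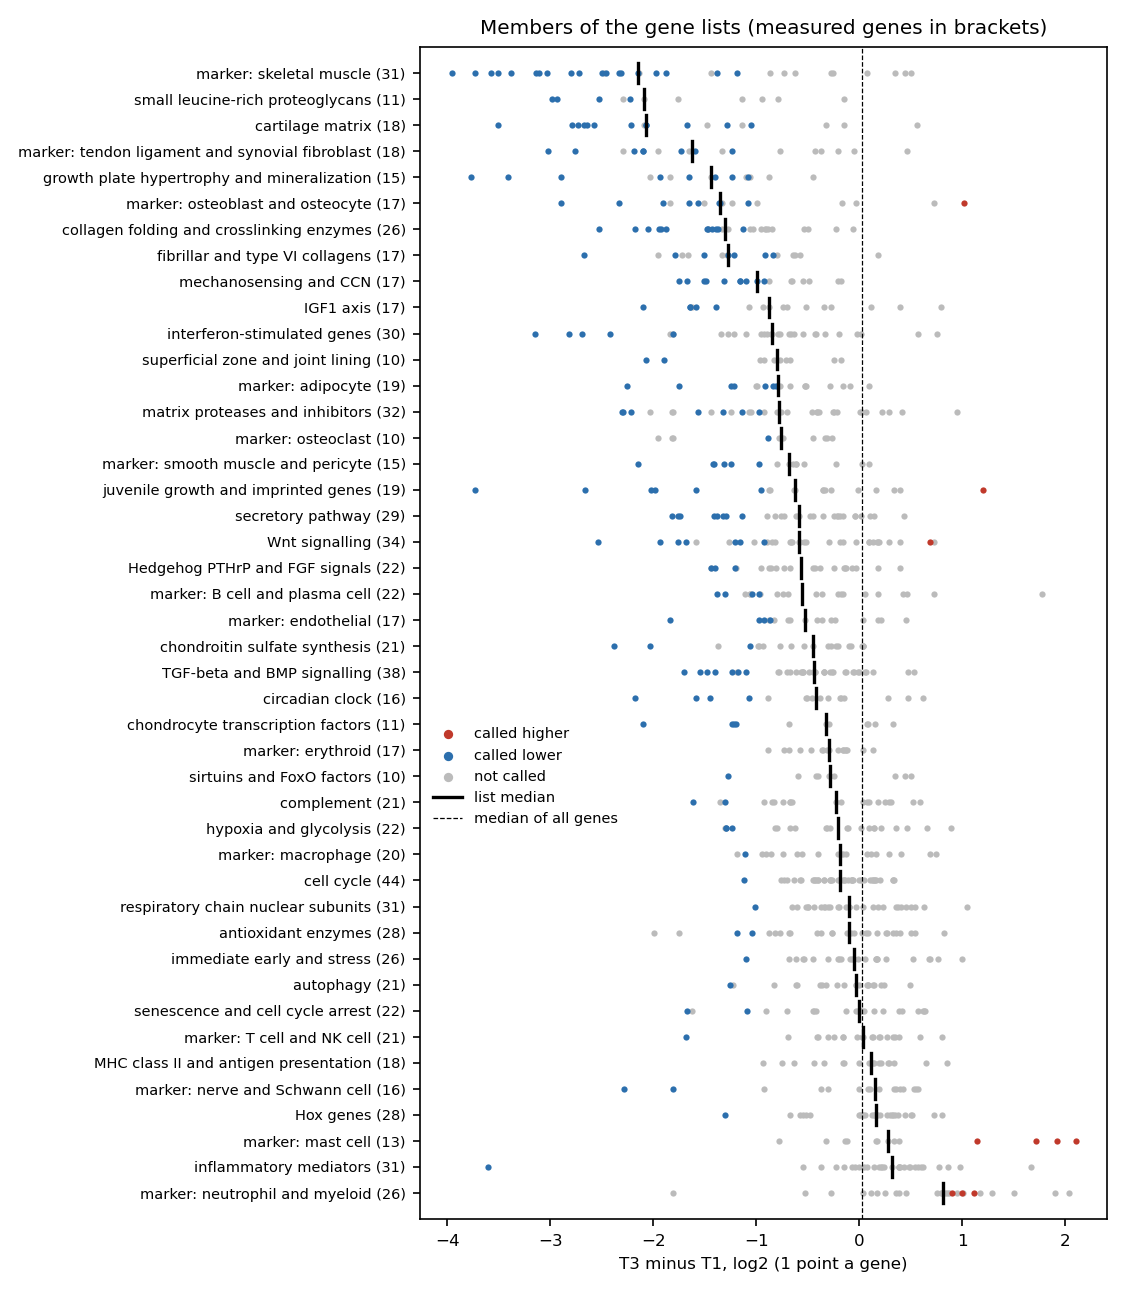
T3 minus T1 difference in log2 (horizontal axis) of each measured gene in the lists of at least 5 genes (rows), with called lower genes in blue, called higher in red and others in grey; thick bars are list medians and the dashed line is the median of all genes. Skeletal muscle, small leucine-rich proteoglycans and cartilage matrix have the lowest medians (-2.15, -2.09 and -2.07), and the neutrophil and myeloid list has the highest (0.81).

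The adult arrays place these values in time. The comparisons of adult with youth and of early-stage elderly with adult share arrays with the one above, so they are set side by side as values. Between T1 and T2, 327 probe sets (0.891%) were called. Among genes 115 were higher and 115 lower, 0.633% each. Between T2 and T3, 55 probe sets (0.150%) were called, with 4 genes higher (0.022%) and 21 lower (0.116%). Without T3 replicate 3 this last count was 4165, and without T3 replicate 2 it was 0, when 4195 probe sets had an unadjusted p under 0.05 in limma.

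Muscle markers had a median of -2.57 in T2 minus T1 and of 0.58 in T3 minus T2. In the first of these, 19 of 31 were called lower. The adipocyte list likewise had -1.02 and 0.20. For the cartilage matrix the medians were -0.90 in T2 minus T1 and -1.23 in T3 minus T2, and its mean signal was 9.20 to 9.22 at T1, 8.13 to 8.74 at T2 and 6.90 to 7.79 at T3. The hypertrophy list had -0.87 and -0.70. Capn6, Matn3 and Hapln1 were called lower in T3 minus T2 as well, with changes of -2.38, -2.21 and -1.54.

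**Figure D4:**
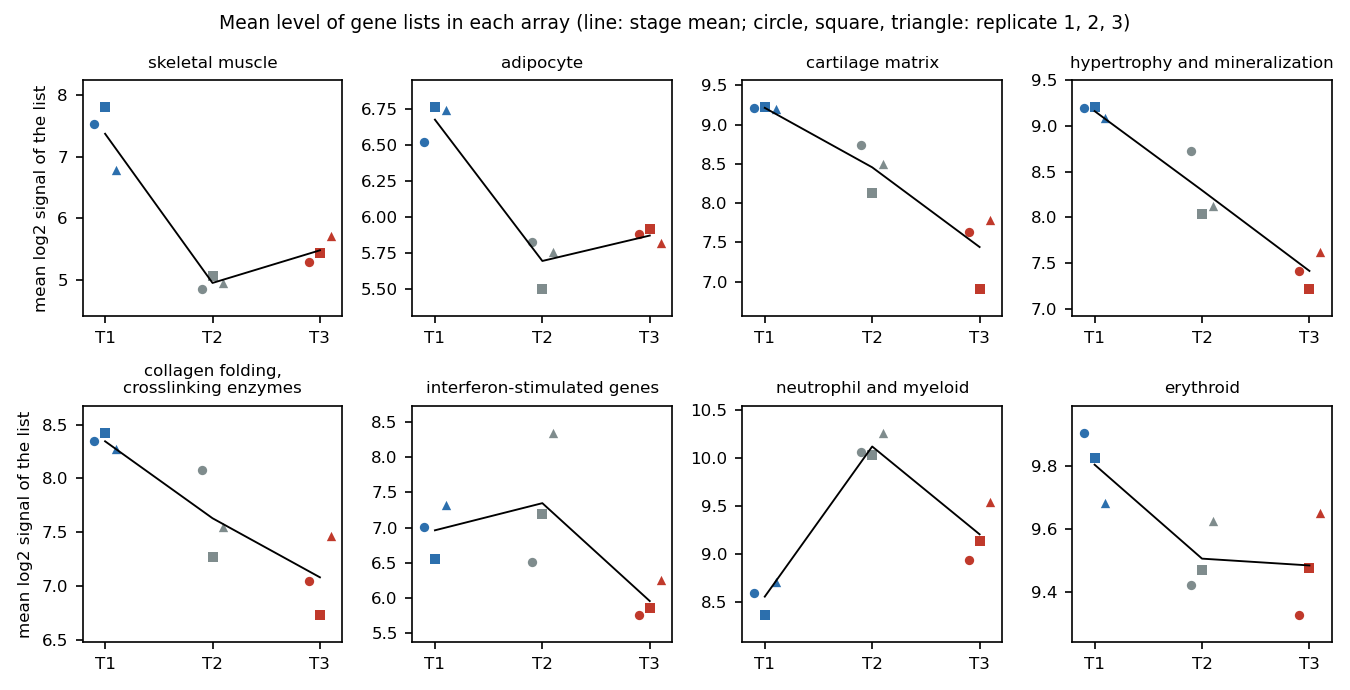
Mean log2 signal of 8 gene lists (vertical axis) on each array of T1, T2 and T3 (horizontal axis), with lines through the stage means. Skeletal muscle and adipocyte lists are low at both T2 and T3, the cartilage matrix and hypertrophy lists are lowest at T3, and the interferon list is spread from 6.51 to 8.34 at T2.

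Interferon-stimulated genes, which cells switch on to resist viruses, had 5 of 30 members called lower, against 4.34% of all genes. The list median was -0.85. Ifi27 gave 7.33, 7.63 and 8.88 at T3, against 10.83, 10.63 and 10.84 at T1 (change -2.82, SE 0.39, limma adjusted p = 0.00299). Irf7, the factor that amplifies the response, gave 6.03, 6.83 and 6.69 at T3, against 9.46, 8.44 and 9.72 at T1 (change -2.69, SE 0.58, limma adjusted p = 0.0228). Isg15, a ubiquitin-like protein gene, gave 3.75, 4.21 and 4.79 at T3, against 7.64, 6.51 and 8.06 at T1 (change -3.15, SE 0.72, limma adjusted p = 0.0288). In each of these the T3 arrays lay below all T1 arrays, and T3 replicate 1 was the lowest.

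The other falls of the list were Herc6 (-2.42), an ISG15 ligase gene in mouse, and Oas1b (-1.81), an oligoadenylate synthetase family gene named after its value was seen. At T2 these genes spread widely, and Isg15 gave 4.79, 6.58 and 8.91. The list median was 0.32 in T2 minus T1 and -1.36 in T3 minus T2. Ifi27 stayed called in all 17 alternatives, Irf7 in 10 and Isg15 in 9 of the 16 that measured it.

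The promoters of these genes show a sequence the group is known for. The interferon-stimulated response element, searched as GAAANNGAAA on both strands, lay in 15 of 21 promoters of the list with a sequence in the RefSeq table (71.4%), against 3.77% of all 27457 promoters there, each reaching from 250 bases before to 50 after the start of the gene. Of the falling genes with a promoter in the table, 3 of 4 held it, and Herc6 did not have these letters in the window. A match is a description of letters, not of binding. The 3 promoters are shown on GRCr8, 5′ to 3′ along each gene, with the match or its reverse complement in capitals.
Ifi27, chr6:128355062-128355361, plus strand: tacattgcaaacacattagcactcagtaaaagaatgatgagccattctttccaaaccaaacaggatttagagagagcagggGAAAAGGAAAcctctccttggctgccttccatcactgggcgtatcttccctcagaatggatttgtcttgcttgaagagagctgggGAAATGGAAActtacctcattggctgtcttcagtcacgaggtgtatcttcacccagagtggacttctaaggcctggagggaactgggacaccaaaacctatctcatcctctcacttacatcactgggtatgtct
Irf7, chr1:205799974-205800273, minus strand: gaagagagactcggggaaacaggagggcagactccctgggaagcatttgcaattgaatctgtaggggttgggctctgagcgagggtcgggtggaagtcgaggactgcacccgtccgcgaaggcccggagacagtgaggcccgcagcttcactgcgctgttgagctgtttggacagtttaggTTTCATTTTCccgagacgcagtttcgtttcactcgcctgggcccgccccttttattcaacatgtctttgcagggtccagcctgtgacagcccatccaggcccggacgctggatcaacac
Oas1b, chr12:41395803-41396102, minus strand: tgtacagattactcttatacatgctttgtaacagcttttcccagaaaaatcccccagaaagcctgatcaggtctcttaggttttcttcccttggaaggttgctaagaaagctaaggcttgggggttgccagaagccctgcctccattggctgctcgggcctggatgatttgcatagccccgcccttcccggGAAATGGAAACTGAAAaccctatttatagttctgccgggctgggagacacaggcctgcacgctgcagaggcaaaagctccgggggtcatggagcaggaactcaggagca
Ifi27 held separate matches that start at -169 and -84 from the start site, Irf7 a single match at -69 on the reverse strand, and Oas1b a pair at -59 and -53 that overlap by 4 bases.

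Immune and inflammatory genes gave a mixed picture. Alox15, a lipoxygenase, gave 8.48, 8.07 and 8.48 at T3, against 11.93, 11.96 and 11.95 at T1 (change -3.60, SE 0.55, limma adjusted p = 0.00579), and stayed called in 16 of 17 alternatives. It was the only call among 31 inflammatory mediators (3.23%), against 4.34% of all genes called lower. The list median was 0.32, near that of olfactory receptor genes (0.29) and of the dimmest of the 4 groups of genes (0.26). Of the 31, 7 lay in the brightest group. The cytokine genes Il6, Il1b and Tnf had differences of 0.14, 0.59 and 0.21, and none of them was called.

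Neutrophil and myeloid markers had the highest median of the lists, 0.81. Of 26 measured genes 3 rose, against 0.732% of all genes, and 17 lay with all T3 arrays above all T1 arrays, against 14.6% of all genes. Ncf1, a subunit of the phagocyte oxidase, gave 9.08, 9.25 and 9.15 at T3, against 8.05, 7.86 and 8.23 at T1 (change 1.12, SE 0.27, limma adjusted p = 0.0352). Cebpe, a factor of granulocyte maturation, gave 7.09, 7.66 and 7.16 at T3, against 6.50, 6.27 and 6.15 at T1 (change 1.00, SE 0.23, limma adjusted p = 0.0290). Padi4, which citrullinates histones in neutrophils, changed by 0.90. The list stood higher still in adults, at 10.04 to 10.26 in its mean signal, with 8.94 to 9.55 at T3 and 8.36 to 8.71 at T1.

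Of 13 measured mast cell markers 4 rose, against 0.732% of all genes, and the other 9 were not called. The list median was 0.28, near that of olfactory receptor genes (0.29) and of the dimmest of the 4 groups of genes (0.26), and no member lay in the brightest group. Mcpt10, a mast cell protease gene, gave 5.79, 6.65 and 6.32 at T3, against 4.73, 3.95 and 3.78 at T1 (change 2.10, SE 0.41, limma adjusted p = 0.0162). Ms4a2 and Fcer1a, the beta and alpha chains of the high-affinity IgE receptor, changed by 1.92 and 1.72. Fcer1a gave 5.45, 5.11 and 5.40 at T3, against 3.56, 3.80 and 3.45 at T1 (SE 0.30, limma adjusted p = 0.0112). Hdc, the enzyme that makes histamine, changed by 1.14. The defining mast cell genes Cpa3 and Kit were not called, at -0.78 and -0.14. Over the alternatives 0 to 4 of the mast cell genes and 0 to 12 of the neutrophil and myeloid genes were called higher, and Fcer1a stayed called in 14 of the 16 that measured it.

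Erythroid markers had no call in limma among 17 genes, 2 were lower at an unadjusted p under 0.05, and the mean signal was 9.33 to 9.65 at T3 and 9.69 to 9.91 at T1. B cell and plasma cell markers had 4 of 22 called lower (median -0.56), including Ms4a1, the CD20 gene (-1.04), and Vpreb3 (-1.30). That list was mixed, with 6 positive differences, up to 1.77 for Jchain, which was not called. At an unadjusted p under 0.05 in limma, 3 of its members were higher and 11 lower. T and NK cell markers had 1 of 21 called, Cd4 (-1.69), in a list with 12 positive differences and a median of 0.03. Macrophage markers had 1 of 20 called, Cd68 (-1.11). Both shares were close to the 4.34% of all genes called lower. The defining neutrophil genes Mpo, Elane and Ltf were at 0.11, 0.38 and 0.35. The remaining defining gene, S100a8, was at 2.04, the largest difference in the neutrophil and myeloid list. None of these defining genes was called, and the part of blood or marrow cells in the rises was not tested.

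The 12 largest rises showed a pair of patterns over the arrays, described after their values were seen. Stfa2, a stefin (cysteine protease inhibitor) gene, gave 9.05, 8.92 and 8.40 at T3, against 6.66, 5.40 and 6.43 at T1 (change 2.63, SE 0.68, limma adjusted p = 0.0436). Cd200r1, an inhibitory receptor gene of myeloid cells, gave 6.64, 6.39 and 6.71 at T3, against 5.27, 4.55 and 4.86 at T1 (change 1.69, SE 0.35, limma adjusted p = 0.0195). In these genes the 3 T3 arrays were close to each other. Stfa2 stayed called in 9 of 17 alternatives and Cd200r1 in 11. Pram1 (1.82), Orm1 (1.71) and Rgs1 (1.87), all known from leukocytes or the acute phase, also rose.

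Atp5pd, an ATP synthase subunit gene, gave 9.03, 9.28 and 7.05 at T3, against 6.74, 6.21 and 6.64 at T1 (change 1.93, SE 0.44, limma adjusted p = 0.0272). Pkib, a protein kinase A inhibitor gene, gave 10.35, 10.26 and 8.87 at T3, against 8.27, 7.66 and 8.16 at T1 (change 1.80, SE 0.40, limma adjusted p = 0.0255). The odorant receptor gene Or4c31 (1.70) and Fancd2osl1 (1.71) had the same shape, with T3 replicate 3 well below replicates 1 and 2 and just above T1. Of the 133 genes called higher, 76 (57.1%) had replicate 3 as the lowest T3 array, against 34.1% of all genes. Of the 788 called lower, 611 (77.5%) had it as the highest, against 41.3% of all genes. This is the array with the lowest olfactory receptor median at T3.

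**Figure D5:**
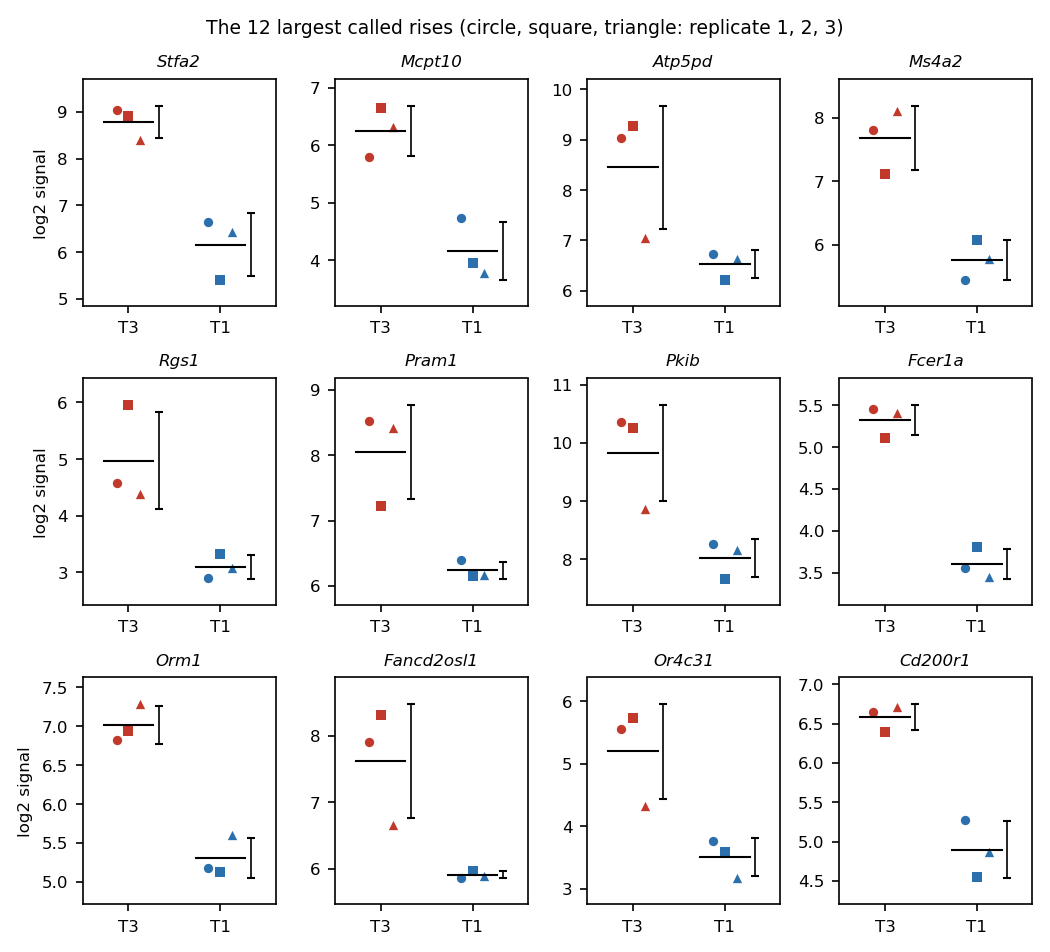
Log2 signal of the 12 called genes with the largest rises, with 3 T3 arrays (red, left) and 3 T1 arrays (blue, right) a panel; horizontal lines are means and side bars are SD (n = 3). The T3 triangles (replicate 3) sit near the T1 points for Atp5pd, Pkib, Fancd2osl1 and Or4c31 and near the other T3 points for Stfa2, Mcpt10, Fcer1a and Cd200r1.

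Of 363 measured microRNA genes, 12 rose (3.31%) and 2 fell (0.551%), against 0.732% and 4.34% of all genes. All T3 arrays lay above all T1 arrays for 25.3% of them, against 18.99% of olfactory receptor genes and 14.6% of all genes, and the median difference was 0.27 for microRNA genes and 0.29 for olfactory receptor genes. The arrays took total RNA, in which a mature microRNA, its hairpin and its host transcript cannot be told apart. Mir142, known from blood cells, gave 5.68, 4.20 and 5.0 at T3, against 3.09, 3.25 and 3.20 at T1 (change 1.78, SE 0.35, limma adjusted p = 0.0163). Mir551b gave 7.06, 6.94 and 5.76 at T3, against 5.26, 4.93 and 5.23 at T1 (change 1.45, SE 0.30, limma adjusted p = 0.0206). T3 replicate 3 was the lowest of its group for Mir551b, as it was for Mir423 (1.54) and Mir3584 (1.62), whereas for Mir3568 (0.97) the T3 arrays lay close together (5.77, 5.89 and 5.91).

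The falling ones were Mir344-1, with 2.80, 3.01 and 2.85 at T3, against 4.23, 4.23 and 4.27 at T1 (change -1.35, SE 0.29, limma adjusted p = 0.0218), and Mir501 (-0.78). Both gave low signals, without overlap between T3 and T1. Mature sequences from RefSeq (GRCr8) were found for 12 of the 14 called genes, 22 in all, and no 2 of the 22 shared a seed. The seed, bases 2 to 8, by which a microRNA pairs with its targets, is in capitals in the sequences of the genes described.
rno-miR-142-5p, risen gene: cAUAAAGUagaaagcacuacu
rno-miR-142-3p, risen gene: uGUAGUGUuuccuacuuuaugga
rno-miR-551b-3p, risen gene: gGCGACCCauacuugguuucagu
rno-miR-423-5p, risen gene: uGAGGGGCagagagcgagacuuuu
rno-miR-3584-5p, risen gene: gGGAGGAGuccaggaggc
rno-miR-344-3p, fallen gene: uGAUCUAGccaaagccugaccgu
rno-miR-501-3p, fallen gene: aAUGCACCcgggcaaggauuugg
Of the 39 long non-coding RNA genes measured, 1 was called, Vof16, which fell by 1.46 (limma adjusted p = 0.0477).

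For processes often discussed in ageing tissue the counts called lower were 1 or 2 a list, to be read against the 4.34% of all genes called lower. In the brightest of the 4 groups of genes by signal this share was 9.58%. That group held 39 of the 44 cell cycle, 25 of the 31 respiratory chain and 23 of the 28 antioxidant genes. In the senescence list 2 of 22 genes fell: Plk2 (-1.67), a stress-responsive kinase gene, and Glb1 (-1.09), the lysosomal beta-galactosidase gene. Cdkn2a, the gene of the p16 cell cycle inhibitor, was at 0.62 and not called, and the list median of -0.00 changed sign in 8 of 17 alternatives. In the cell cycle list 1 of 44 fell, Aurkb (-1.12), a mitotic kinase gene. Among antioxidant enzymes Gpx8 (-1.18) and Gpx7 (-1.05), peroxidases of the endoplasmic reticulum, fell, 2 of 28. Autophagy genes had 1 fall in 21, Ulk2 (-1.26), an initiating kinase gene, and nuclear genes of the respiratory chain 1 in 31, Sdhc (-1.02), a subunit of complex II. Among sirtuins and FoxO factors 1 of 10 fell, the deacetylase gene Sirt2 (-1.27). None of these falls stayed called in more than 10 of the 17 alternatives.

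More calls came from the clock and from oxygen sensing, again beside 4.34% of all genes called lower. In the circadian list 4 of 16 fell: Nr1d1 (-2.18), which represses the clock activator, Dbp (-1.58), an output factor, Bhlhe40 (-1.45) and Clock (-1.07). Nr1d1 gave 4.85, 4.86 and 5.61 at T3, against 6.39, 8.22 and 7.26 at T1 (SE 0.41, limma adjusted p = 0.0138). Its T1 arrays were widely spread but did not overlap with T3. The sources used here do not give the hour of tissue collection. In the hypoxia and glycolysis list 3 of 22 fell: Hif1a (-1.24), the oxygen-regulated factor, Car12 (-1.30), a carbonic anhydrase, and Aldoc (-1.29), an aldolase. These calls also moved with the settings. Of 17 alternatives, Nr1d1 stayed called in 12, Dbp in 11, Bhlhe40 and Clock in 7, Hif1a in 6 and Aldoc in 16. Car12 stayed called in 10 of 16. In each of these lists the fewest genes called lower under an alternative was 0.

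The remaining lists are given as counts, beside the 4.34% of all genes called lower. Of 21 complement genes 2 fell, C1r (-1.62), which starts the classical cascade, and Cd59b (-1.31), which blocks its last step. Of 26 immediate early and stress genes 1 fell, the matricellular gene Ccn1 (-1.10), and of 28 Hox genes 1 fell, Hoxa5 (-1.31), both shares being near that of all genes. In the Hox list 21 differences were positive and the median was 0.16. Nerve and Schwann cell markers had 2 of 16 called lower, Pmp22 (-2.28) and S100b (-1.81), a gene that chondrocytes also express, while the defining Schwann cell gene Sox10 was at 0.42 and not called. MHC class II and antigen presentation genes had no call in limma among 18, with 2 higher and 2 lower at an unadjusted p under 0.05, and the 3 known lncRNAs measured had no call and no unadjusted p under 0.05.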

How the data were processed

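Total RNA of rat knee cartilage was hybridised to Affymetrix RaGene 2.0 ST arrays. The deposited table holds log2 signals that the authors made with RMA, per the submitters' processing notes. The method corrects background, makes the signal distributions of arrays more alike and summarises probe sets, so a shift shared by most transcripts is partly removed. The deposited distributions still differed, with standard deviations over probe sets from 1.48 on T4 replicate 1 to 2.05 on T2 replicate 1. The genome build and the software version of this step were not given in the sources used here. The platform annotation gave names: 18511 probe sets had 1 symbol, 575 several and 17599 none, and 18394 of the first matched a RefSeq gene (GRCr8). For 291 genes with several probe sets the brightest over all arrays was taken.

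Stage means were fitted with limma 3.58.1 (lmFit, eBayes) in R 4.3.3 on the 15 arrays together, with Benjamini-Hochberg adjustment over 36685 probe sets and a call at an adjusted p under 0.05. The code was tested on simulated data. Named were the 12 largest rises and 12 largest falls among called genes without overlap (symbols starting with LOC, RGD, AABR, Olr, Mir, Snor or Vom left out), up to 4 called genes of each of 45 lists by smallest p, the member with the largest difference of a list with no call, up to 5 called microRNA and 3 called lncRNA genes per direction, and fixed cartilage, growth, muscle and fat genes. Group members and lists were chosen with earlier results of these data known. List counts and medians carry no test of their own. The number of arrays limits the precision.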

Additional observations from a re-analysis of the deposited data

How the results depend on the processing

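The counts of called probe sets moved with the settings, and each array left out changed them. None of the probe sets called between T3 and T1 changed sign, and none of the 146 called named genes reversed. Signs could not change in the fits on the brighter probe sets, without T4, on the 6 arrays alone, with trend and robust estimates or with the replicate block. Those fits kept the same T3 and T1 means. Signs of uncalled genes were not followed. Between T3 and T1 (1562 called, 561 higher, 1001 lower), quantile normalization gave 558 (108 higher, 450 lower), the 6 arrays alone 556 (148, 408), array weights 12150 (7215, 4935), the fit without T4 4203 (2095, 2108) and T1 replicate 3 as adult 65 (11, 54). Median centring gave 328 higher and 1698 lower, and the olfactory receptor covariate 1108 higher. Of the calls, 35.9% were higher as deposited, 16.2% after median centring, 19.4% after quantile normalization, 43.1% (773 higher, 1020 lower) after cyclic loess, 49.8% without T4, 59.4% with array weights and 56.5% with the covariate. Leaving out 1 replicate gave 183 to 4947 called, 40 to 2608 higher and 142 to 2339 lower. Between T2 and T1 (327 called), the count was 147 after quantile normalization, 517 after loess, 604 without T4, 2381 with array weights, 9 with T1 replicate 3 as adult and 685 with the covariate, and 112 to 384 with 1 replicate left out. Between T3 and T2 (55 called), it was 99 after centring, 10 after quantile normalization, 242 after loess, 146 on the brighter probe sets, 1895 without T4, 10464 with array weights, 85 with the trend and robust fit and 16 with the covariate, and 0 to 4165 with 1 replicate left out; where limma gave 0, 4195 probe sets had an unadjusted p under 0.05. Deviations from the stage means had correlations of -0.002, -0.112 and -0.041 between same-numbered T3 and T1 replicates, and of -0.089 to 0.128 between other pairs. With 3 arrays a stage, whose deviations depend on each other, these values cannot tell whether the numbers pair the arrays. With the replicate number as a block, 1122 probe sets were called between T3 and T1, 355 of them higher, and 32 between T3 and T2. Of 146 called named genes, 146 stayed called without T4 and with array weights, 92 after quantile normalization, 75 with the 6 arrays alone and 14 with T1 replicate 3 as adult. The medians of the cell cycle, senescence, antioxidant, autophagy, respiratory chain, MHC class II, immediate early, Hox, erythroid, secretory, T and NK cell and nerve lists changed sign in at least 1 alternative. The causes were not tested.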

Other observations

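Some further genes with higher signals at T3 are given as values chosen after they were seen. Jchain and S100a8 belong to the B cell and plasma cell list and to the neutrophil and myeloid list above. Terc, the telomerase RNA gene, gave 8.41, 7.47 and 7.09 at T3, against 6.24, 6.02 and 6.43 at T1 (change 1.42, SE 0.28, limma adjusted p = 0.0163). Mir328 had the largest change among microRNA genes, 2.18, with 8.79, 9.25 and 6.95 at T3, against 6.06, 5.94 and 6.45 at T1 (SE 0.48, limma adjusted p = 0.0241). Jchain, which joins immunoglobulin chains, gave 10.78, 10.64 and 10.84 at T3, against 9.05, 9.23 and 8.66 at T1, with no overlap, and was not called (change 1.77, SE 0.66, limma adjusted p = 0.137). The neutrophil alarmin gene S100a8 likewise gave 11.62, 11.80 and 11.59 at T3, against 9.78, 9.27 and 9.85 at T1, and was not called (change 2.04, SE 0.81, limma adjusted p = 0.159).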
